A study of Sesuvium portulacastrum with 18 samples.

Results

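In shoots of Sesuvium portulacastrum, 217 transcripts stood at a deep trough after 8 h of salt and were back near their starting level after 24 h. They were chosen by the measured values themselves, in the shoot table of normalized CPM (counts scaled to library size, with a further factor per library). The mean at 0 h and the mean at 24 h each had to reach 10, and the 8 h mean could be at most 1/6 of both. The 24 h mean had to lie between 2/3 and 1.5 times the 0 h mean, and each 8 h library had to lie below all 0 h and 24 h libraries. The 217 are 0.243% of the 89295 shoot transcripts with counts, and 1.97% of the 11035 that met the limits on level and return, whatever they did at 8 h.

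The plants were grown from stem cuttings in liquid medium under a 12 h photoperiod and were used at 15 days. The 0 h plants were moved to control medium and harvested at once, and the 8 h and 24 h plants were moved to medium with 250 mM NaCl and harvested that much later. Each time had 3 shoot libraries, called biological replicates in the series' design text, with 10050233 to 15068602 estimated counts each, and 9 root libraries were made in the same way. No unstressed plants were harvested at 8 h or 24 h, so salt, time since the change of medium and hour of day cannot be told apart. The transcripts carry IDs without gene names, sequences or functions, so none of them can be given a role, and the tissue label could not be checked against marker genes.

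A halophyte is a plant that completes its life on saline ground. In plants moved to salt, the fall in water potential outside the root acts first and slows water uptake and leaf growth, while sodium builds up in the shoot more slowly and is held in vacuoles by sodium-proton exchangers of the vacuole membrane. Shoots also carry a circadian clock, and the RNA of many photosynthesis and metabolism genes rises and falls with a daily period in plants generally. Which of these processes the 217 transcripts belong to is not known from the files.

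As a group the 217 transcripts held a sizeable part of the shoot's reads before and after the trough and little at 8 h. They took 3.86%, 4.22% and 4.04% of all counts in the 0 h libraries, 0.443%, 0.430% and 0.443% in the 8 h libraries, and 4.38%, 4.39% and 4.33% in the 24 h libraries. The libraries of each time lay close together, at 4.04 ± 0.179% at 0 h, 0.439 ± 0.00737% at 8 h and 4.36 ± 0.0342% at 24 h (SD, n = 3 each). These shares describe the choice and are no test of it. In whole shoots, fewer cells of a type and less RNA per cell cannot be told apart.

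The depth of the trough varied widely among the members. The 8 h mean was between 0.404% and 16.6% of the lower of the other 2 means, with a median of 10.6% and quartiles of 6.03% and 14.2%. Of the 217, 84 lay less than 8-fold below that mean, 133 at least 8-fold, 58 at least 16-fold, 21 at least 32-fold, 9 at least 64-fold and 3 at least 128-fold. The median member had a mean level of 50.7 normalized CPM at 0 h, and the medians of the member means were 4.67 at 8 h and 58.4 at 24 h. At 8 h, 21 members averaged under 1 normalized CPM and 70 still averaged at least 10. No member was without counts in all 3 of the 8 h libraries, 2 had a 0 in at least 1 of them, and 8 had under 10 counts in each.

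**Figure D1:**
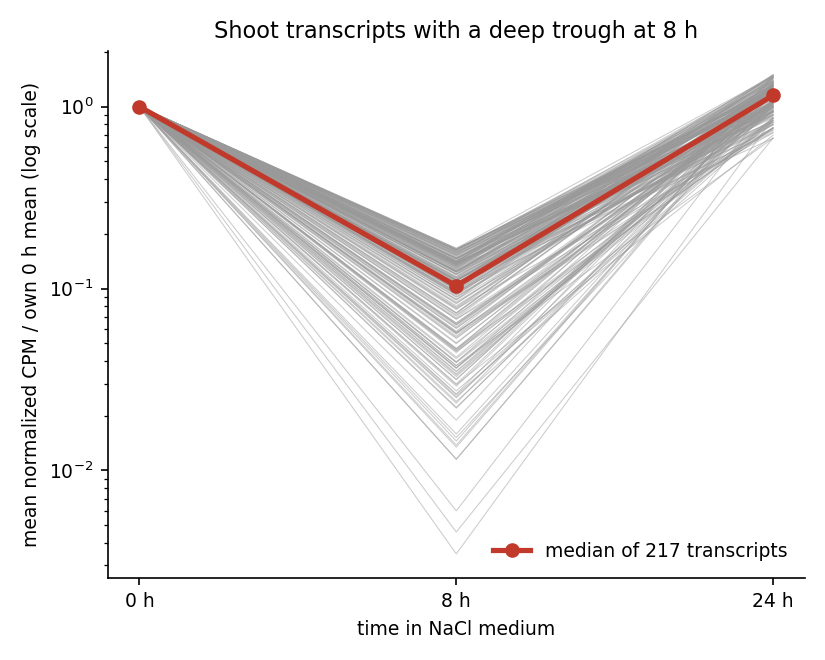
Mean normalized CPM of each of the 217 transcripts at 0 h, 8 h and 24 h, divided by its own 0 h mean (log axis). Grey lines are transcripts and the red line is their median; all lines dip at 8 h and end between 0.671 and 1.499 times the 0 h mean, which is what the rule required.

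The members with most reads at 0 h still had between 150.9 and 341.2 normalized CPM at 8 h, with 1 exception. These values are not divided by transcript length, which the files do not give, so they rank reads and not molecules. S_Transcript_13383.p1 had 2949, 3825 and 3675 normalized CPM at 0 h, 312.7, 318.5 and 392.4 at 8 h, and 3349, 3058 and 3307 at 24 h. S_Transcript_68430.p1 had 2525, 3562 and 4206 at 0 h, 257.3, 307.9 and 390.9 at 8 h, and 3722, 4083 and 3550 at 24 h. In both, the 8 h libraries lay far below all others, while the 0 h and 24 h libraries overlapped.

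S_Transcript_79866.p1 averaged 2436 ± 231 normalized CPM at 0 h, 335.4 ± 54.5 at 8 h and 2302 ± 213 at 24 h. S_Transcript_158397.p1 averaged 1916 ± 209 at 0 h, 301.4 ± 23.5 at 8 h and 2349 ± 180 at 24 h (SD, n = 3 each). In these abundant transcripts, the 8 h mean was 14.6% and 15.7% of the lower of the other means, close to the limit of the rule. S_Transcript_9987.p1 went lower, with 158.8, 152.2 and 141.7 normalized CPM at 8 h, against 1758, 1961 and 2088 at 0 h. Its 24 h libraries, at 2593, 2495 and 2557, lay wholly above those at 0 h.

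The exception was S_Transcript_1880.p1, whose level at 8 h was far lower than in the other 5 of the highest members. It had 1341, 1320 and 1455 normalized CPM at 0 h, 21.9, 20.6 and 19.96 at 8 h, and 1666, 1497 and 1383 at 24 h. The 8 h mean was 1.52% of the 0 h mean, and the 3 libraries at 8 h differed by little (20.8 ± 0.969, SD).

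Among the 6 deepest troughs, S_Transcript_709.p1 had by far the highest level at 0 h. It had 1185, 982.8 and 889.0 normalized CPM at 0 h and 4.96, 3.98 and 5.06 at 8 h, which is 0.681% of the lower of its other means. At 24 h its libraries were spread, at 509.6, 975.3 and 572.0, so that its mean of 685.6 ± 253 (SD, n = 3) lay just inside the limit on return.

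The other 5 deepest members had lower levels, and their percentages rest on few counts. S_Transcript_305760.p1 had 37.9, 31.0 and 14.7 normalized CPM at 0 h, 0.0719, 0.0738 and 0.145 at 8 h, and 18.2, 31.2 and 22.4 at 24 h. S_Transcript_21812.p1 had 9.91, 21.3 and 17.9 at 0 h, 0, 0.221 and 0.0723 at 8 h, and 16.1, 21.3 and 16.7 at 24 h. Each of these 2 had 4 counts in all at 8 h, so the size of their fall is poorly measured, although no 8 h library came near the others.

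S_Transcript_158607.p1, with 8 counts at 8 h, averaged 16.8 ± 2.04 normalized CPM at 0 h, 0.195 ± 0.0871 at 8 h and 21.0 ± 2.55 at 24 h. S_Transcript_1885.p1 averaged 84.5 ± 33.9 at 0 h, 0.970 ± 0.226 at 8 h and 110.2 ± 20.8 at 24 h. S_Transcript_99861.p1 averaged 75.8 ± 12.9 at 0 h, 1.02 ± 0.159 at 8 h and 102.8 ± 9.76 at 24 h (SD, n = 3 each). In these last 2, with 40 and 42 counts at 8 h, the 8 h mean was 1.15% and 1.34% of the 0 h mean.

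**Figure D2:**
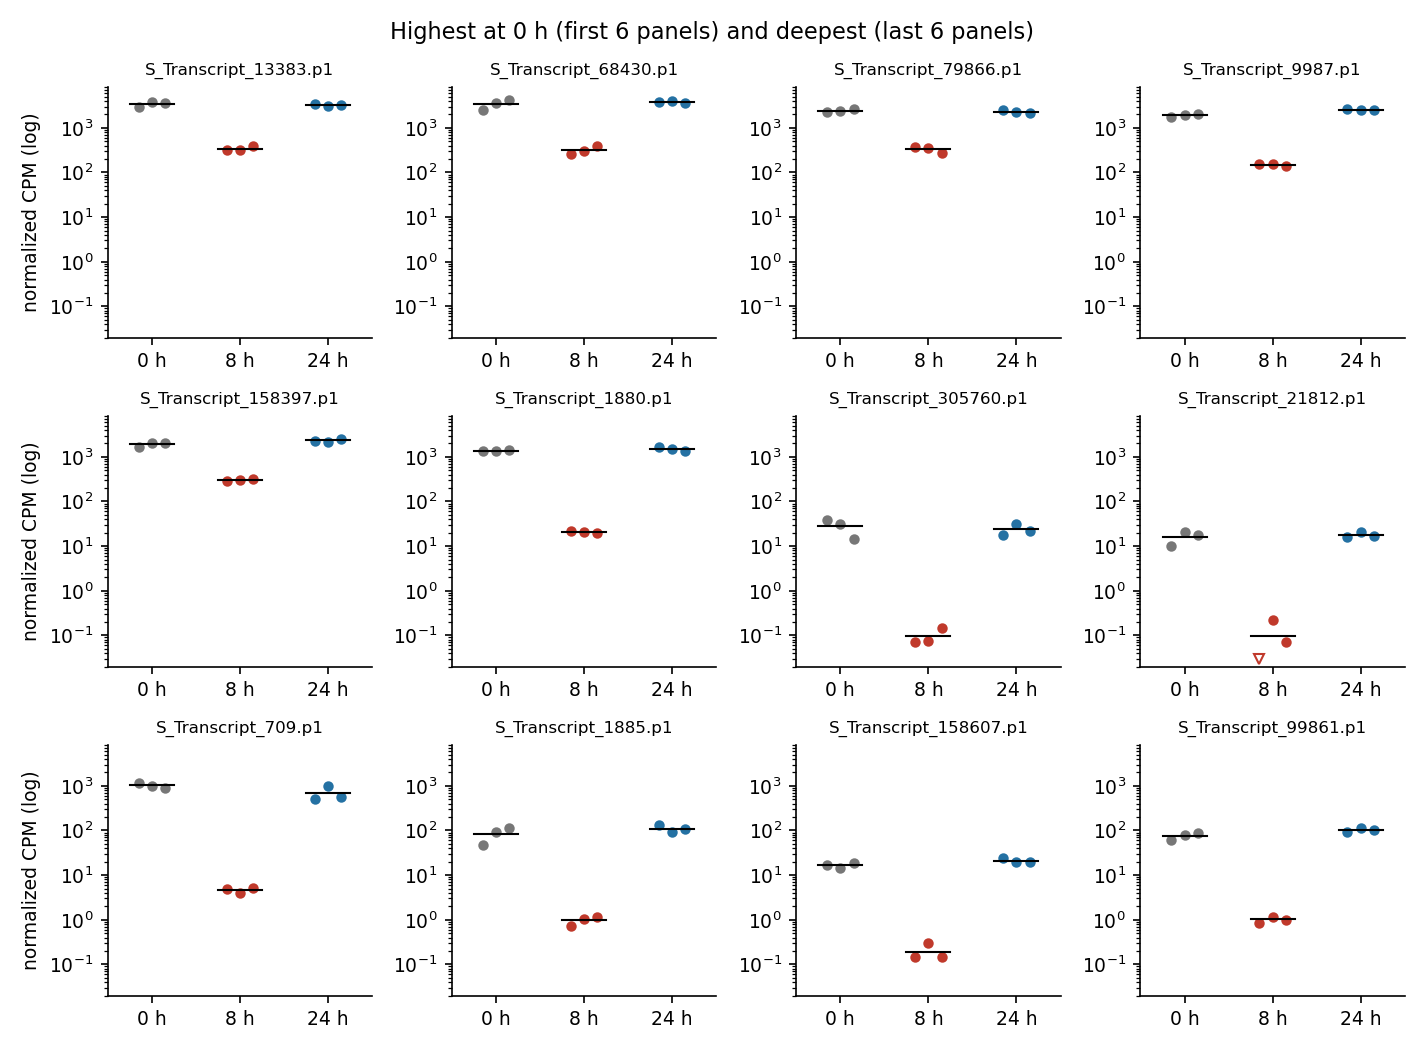
Normalized CPM in each library (points, log axis) and the mean of each time (bars) for the 6 members highest at 0 h and the 6 deepest; an open triangle marks a library at 0. The 8 h points lie below all others in every panel, from S_Transcript_158397.p1 at 15.7% to S_Transcript_305760.p1 at 0.404% of the lower of the other means.

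At the limit of the rule the values run on without a gap. The members nearest inside were S_Transcript_81023.p1, S_Transcript_89530.p1 and S_Transcript_128450.p1, at 16.6% each. The last of these averaged 42.8 ± 1.56 normalized CPM at 0 h, 7.12 ± 0.446 at 8 h and 42.9 ± 3.19 at 24 h. The nearest outside were S_Transcript_74944.p1 at 16.7%, S_Transcript_74946.p2 at 16.8% and S_Transcript_210224.p1 at 16.9%. S_Transcript_74944.p1 averaged 175.0 ± 21.5 at 0 h, 29.2 ± 1.73 at 8 h and 217.3 ± 9.46 at 24 h (SD, n = 3 each), and differs from the members only by this margin.

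The other limits were as close. S_Transcript_32362.p1 was inside at a 24 h mean 1.499 times the 0 h mean and S_Transcript_73644.p1 outside at 1.51 times. At the lower end S_Transcript_2208.p1 was inside at 0.671 times and S_Transcript_11385.p1 outside at 0.651 times. For the level, S_Transcript_28885.p1 was inside with 10.2 normalized CPM at 0 h and S_Transcript_111654.p1 outside with 9.99. No gap in the values separates the members from the transcripts just outside.

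**Figure D3:**
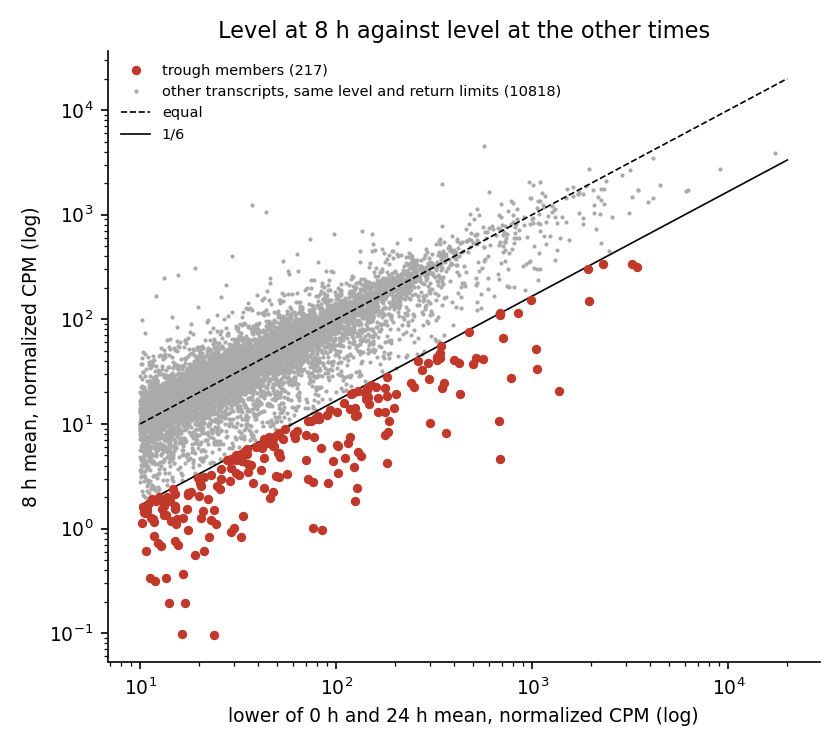
The 8 h mean against the lower of the 0 h and 24 h means (normalized CPM, both axes log) for the 217 members (red) and the 10818 other transcripts that met the limits on level and return (grey). The members continue the lower edge of the grey cloud below the line at 1/6, over the whole range of the horizontal axis that they cover.

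Members were found at all levels and made up a larger share of the transcripts with most reads. Among transcripts that met the limits on level and return, they were 51 of 3265 (1.56%) with a 0 h mean of 10 to 20 normalized CPM, 57 of 4156 (1.37%) at 20 to 50 and 29 of 1975 (1.47%) at 50 to 100. They were 59 of 1428 (4.13%) at 100 to 500 and 21 of 211 (9.95%) at 500 or more. Of the 100 shoot transcripts with most normalized CPM at 0 h, 10 were members, and of the first 1000, 50 were. The depth of the members varied less with level, with a median fold below the lower of the other means of 9.40 at 10 to 20 normalized CPM, 8.03 at 20 to 50, 9.61 at 50 to 100, 9.73 at 100 to 500 and 12.1 at 500 or more.

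The 5 members highest at 0 h gave 36.7% of the normalized CPM summed over the 217 at 8 h and 31.0% of that summed at 0 h. The 50 highest gave 78.9% at 8 h and 79.9% at 0 h. The 5 highest thus held a somewhat larger share of the sum at 8 h, while the share of the 50 highest was similar.

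All members passed the filter on low counts and were among the 40220 shoot transcripts tested. In edgeR's quasi-likelihood test, calls made at a Benjamini-Hochberg adjusted p under 0.05, 217 of 217 members were called lower at 8 h than at 0 h, beside 15.1% of all tested transcripts. All 217 were called higher at 24 h than at 8 h, beside 15.2% of all tested. Every 8 h library below all 0 h and 24 h libraries was a condition of the rule and was met by 13.9% of all tested transcripts. The rule used these libraries, so nothing is read from the counts. The members' log2 fold changes at 8 h against 0 h ran from -8.04 to -2.59 with a median of -3.28, beside a median of -0.0042 over all tested. At 24 h against 8 h they ran from 2.61 to 7.83 with a median of 3.502, beside -0.013 over all tested. With library size alone as the scaling, the median over all tested transcripts shifted to 0.24 at 8 h against 0 h and the members' median was -3.04.

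The trough was also described with the libraries of 1 replicate number left out at all 3 times and the rule applied to the rest. The limits of the rule had been set with all libraries known, so the libraries left out are no independent check. With the libraries numbered 1 left out, 236 transcripts were chosen. In the libraries left out, 236 of 236 were lower at 8 h than at 0 h and at 24 h, 234 by at least 2-fold and 168 (71.2%) by at least 6-fold. With those numbered 2 left out, 185 were chosen, and all 185 were at least 2-fold lower and 171 (92.4%) at least 6-fold lower. With those numbered 3 left out, 208 were chosen, and all 208 were at least 2-fold lower and 172 (82.7%) at least 6-fold lower. Of the chosen, 200, 181 and 188 were members, in the same order.

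Among all transcripts that met the limits on level and return in the remaining libraries, the chosen ones included, 1.57%, 2.08% and 1.92% were at least 6-fold lower in the libraries left out. A fall of at least 2-fold was seen in 7.90%, 9.81% and 9.21% of them. The median 8 h value of the chosen transcripts in the libraries left out was 12.9%, 9.19% and 10.4% of the lower of the other 2 values. In the libraries left out, the 24 h value was within 2/3 and 1.5 times the 0 h value for 64.4%, 93.5% and 80.3% of the chosen.

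**Figure D4:**
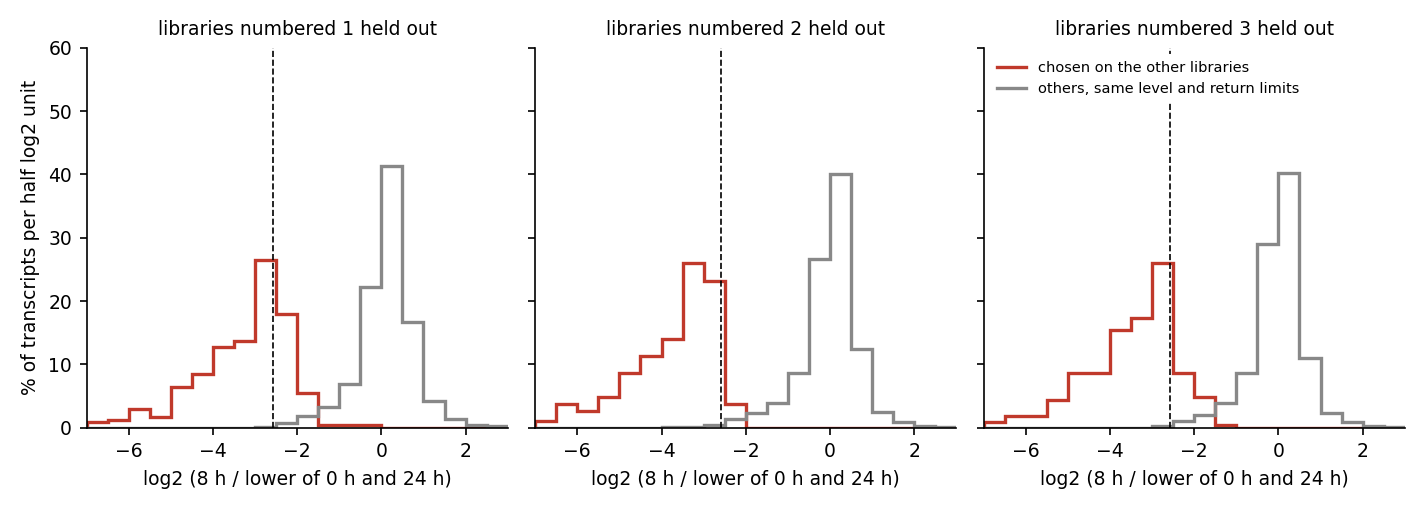
Transcripts by the log2 ratio of the 8 h value to the lower of the 0 h and 24 h values in the libraries left out, as a percentage per bin of 0.5 log2 units. Red, chosen on the remaining libraries by limits set with all libraries known, and grey, others that met the limits on level and return there. The dashed line is at 1/6; the chosen have their mode near it and 71.2%, 92.4% and 82.7% of them lie at or below it.

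The gap between the 8 h libraries and all others was wide for most members. The rule required deep 8 h means and no overlap between libraries, so the gap describes the choice and is no test of it. The lowest of the 6 libraries at 0 h and 24 h was a median of 6.79 times the highest library at 8 h, and at least 6 times for 128 members. It was under 2 times for 1 member, S_Transcript_379.p1, at 1.91 times. That transcript had 3.10, 27.4 and 3.41 normalized CPM at 0 h, 1.08, 1.62 and 1.08 at 8 h, and 20.8, 10.8 and 3.498 at 24 h. Its membership rests on a few high libraries, and it was the 1 member that lost a call in a fit without 0 h replicate 2, without any 1 of the 8 h libraries or, at 24 h against 8 h, without 24 h replicate 1. Without 0 h replicate 2 its log2 fold change at 8 h against 0 h was -1.35, against -3.19 with all libraries.

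Relative to its mean, the spread between replicates of the members was widest at 8 h. Their coefficient of variation over 3 libraries had a median of 13.2% at 0 h, 16.4% at 8 h and 8.92% at 24 h. For the 10818 other transcripts with the same limits on level and return the medians were 10.04% at 0 h, 6.74% at 8 h and 8.47% at 24 h. The members also had their lowest levels at 8 h, and the part of level in this spread was not tested. The coefficient was above 30% for 9 members at 24 h and for 14 at 0 h, and such members were not counted at 8 h. Its upper quartile over the members was 19.4% at 0 h, 27.3% at 8 h and 14.85% at 24 h. S_Transcript_59938.p1 was among the most variable, at 215.2, 123.9 and 85.5 normalized CPM at 0 h, 19.3, 14.2 and 18.7 at 8 h, and 97.1, 226.5 and 161.8 at 24 h. The steadiest at 0 h were S_Transcript_75968.p1 and S_Transcript_16293.p1. S_Transcript_75968.p1 had 29.0, 29.2 and 28.9 at 0 h, 0.575, 0.885 and 1.30 at 8 h, and 34.6, 33.5 and 34.1 at 24 h.

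At 24 h more members stood above their 0 h level than below it. The 24 h mean was above the 0 h mean in 155 members and below it in 62, with a median ratio of 1.15 and quartiles of 0.982 and 1.26. The median ratio of all 11035 transcripts with the same limits was 0.989. The ratio was within 4/5 and 5/4 for 140 members (64.5%), beside 80.5% of those 11035, above 5/4 for 61 and below 4/5 for 16. It varied little with depth, with a median of 1.16 in the 84 members less than 8-fold down, 1.17 in the 75 from 8-fold to 16-fold and 1.10 in the 58 at least 16-fold down.

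In edgeR's test of 24 h against 0 h, 27 members were called higher at 24 h, beside 2.77% of all tested transcripts, and 7 were called lower, beside 4.29%. The rule used both groups and held the ratio within limits, so these counts are a description. The count of 34 fell whichever 1 library was left out, and so did the calls over all tested transcripts. It was 13, 14 and 14 without 24 h replicates 1, 2 and 3, with 1, 3 and 1 of them called lower. In those fits 616, 643 and 641 of all tested were called higher and 1025, 1142 and 1160 lower. With all libraries these were 1115 and 1727. The members' count was 22 and 20 without 0 h replicates 1 and 2, and 22 without 8 h replicate 2. It was 25 without 0 h replicate 3, 8 h replicate 1 or 8 h replicate 3. The part that fewer libraries play in this was not tested.

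The members that ended highest over their start were S_Transcript_32362.p1, S_Transcript_139335.p1 and S_Transcript_16292.p1. S_Transcript_32362.p1 had 46.3, 50.8 and 46.5 normalized CPM at 0 h, 6.54, 5.16 and 6.94 at 8 h, and 72.3, 69.1 and 73.8 at 24 h. S_Transcript_139335.p1 averaged 41.6 ± 8.67 at 0 h, 3.63 ± 0.402 at 8 h and 62.2 ± 5.30 at 24 h (SD, n = 3 each). In both the 24 h libraries lay above all 0 h libraries.

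Those that ended lowest were S_Transcript_2208.p1, S_Transcript_55439.p1 and S_Transcript_709.p1. S_Transcript_2208.p1 had 792.5, 606.5 and 720.9 normalized CPM at 0 h, 78.2, 70.7 and 79.8 at 8 h, and 388.4, 540.1 and 493.1 at 24 h. S_Transcript_55439.p1 had 16.4, 14.7 and 16.97 at 0 h, 0.647, 0.443 and 0.723 at 8 h, and 9.91, 10.9 and 11.5 at 24 h. In these 2 the 24 h libraries lay below all 0 h libraries and above all 8 h libraries, and S_Transcript_709.p1 overlapped between 0 h and 24 h.

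Most deep falls in shoot were followed by a return near the starting level, and most transcripts in general were also near it at 24 h. Without any limit on 24 h, 306 transcripts had a 0 h mean of at least 10 normalized CPM, an 8 h mean of at most 1/6 of it and 8 h libraries all below those at 0 h. Of these, 232 (75.8%) were within 2/3 and 1.5 times the 0 h mean at 24 h, 31 (10.1%) were above 1.5 times, 30 (9.80%) were between 1/6 and 2/3, and 13 (4.25%) were still below 1/6. The 217 members are among the 232. Of the other 15, 14 had an 8 h mean above 1/6 of the 24 h mean and 1 had a 24 h mean under 10. Whatever they did at 8 h, 11035 of the 12134 shoot transcripts with means of at least 10 at 0 h and 24 h were within the same limits on return. That set had a minimum level at 24 h and the 306 had none, so the shares are not of like sets.

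Transcript numbers are a property of the members that the rule did not use. The members carry 215 different numbers, and 203 members (93.5%) have the ID ending p1, beside 86.2% of all tested transcripts. The tested transcripts include many below the level that members had to reach, and the share at like level was not counted. In 20 runs, members had numbers at most 2 apart, with 18 runs of 2 and 2 runs of 3, which hold 42 members (19.4%). The share of other transcripts that fall in such runs was not counted, so 19.4% is a description and cannot show whether members cluster. How the numbers were given is not stated in the sources used here, and the estimated counts may divide the reads of very similar transcripts among several IDs, so members of a run may carry parts of 1 signal.

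In the run S_Transcript_16802.p1, S_Transcript_16803.p1 and S_Transcript_16804.p1, all ended somewhat below their start. S_Transcript_16803.p1 had 341.6, 313.6 and 331.4 normalized CPM at 0 h, 23.6, 23.6 and 19.8 at 8 h, and 238.9, 247.3 and 259.0 at 24 h. S_Transcript_16802.p1 averaged 31.8 ± 7.08 at 0 h, 2.86 ± 0.789 at 8 h and 28.7 ± 1.42 at 24 h. S_Transcript_16804.p1 averaged 26.6 ± 0.564 at 0 h, 1.21 ± 0.540 at 8 h and 23.1 ± 0.766 at 24 h (SD, n = 3 each). Their 24 h means were 0.755, 0.903 and 0.868 times those at 0 h, in the order 16803, 16802 and 16804.

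In the run S_Transcript_20866.p1, S_Transcript_20867.p1 and S_Transcript_20868.p2, all ended somewhat above their start. S_Transcript_20867.p1 had 115.6, 135.4 and 123.9 normalized CPM at 0 h, 15.0, 14.3 and 13.6 at 8 h, and 135.0, 143.4 and 146.7 at 24 h. S_Transcript_20866.p1 averaged 25.9 ± 3.89 at 0 h, 2.97 ± 1.85 at 8 h and 32.6 ± 2.91 at 24 h. S_Transcript_20868.p2 averaged 31.9 ± 6.84 at 0 h, 3.25 ± 0.384 at 8 h and 37.3 ± 1.27 at 24 h (SD, n = 3 each). In the pair S_Transcript_16292.p1 and S_Transcript_16293.p1 the 8 h means were 10.9% and 16.2% of the 0 h means. S_Transcript_16293.p1 had 50.9, 51.9 and 50.2 at 0 h, 7.91, 8.56 and 8.32 at 8 h, and 62.7, 62.6 and 62.2 at 24 h.

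Most of the tested transcripts with numbers near or equal to members' numbers were also low at 8 h, although the rule had not taken them. Of the tested transcripts that were no members, 128 had a number within 2 of a member's, including 11 with the same number as a member. Of the members' 215 numbers, 97 had such a transcript near them. Of these, 78 (60.9%) were at least 2-fold lower at 8 h than at both other times and 53 (41.4%) at least 4-fold lower, beside 6.62% and 1.98% of the 39875 other tested transcripts. The median 8 h mean was 30.1% of the lower of the other means in the 128 and 114% in the 39875. The median 0 h mean was 8.42 normalized CPM in the 128 and 3.95 in the 39875, and the part of level in the difference was not tested. At least 2-fold higher at 8 h than at both other times were 0 of the 128, beside 3.76% of the 39875. Of the 40 that were at least 6-fold lower, 32 had a mean under 10 at 0 h or 24 h and 8 had a 24 h mean outside the limits on return.

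Transcripts with consecutive numbers changed alike to some degree without any member among them. Over 6470 pairs of tested transcripts with consecutive numbers, both non-members, the log2 ratios of 8 h to 0 h (on normalized CPM plus 0.5) correlated at r = 0.523. The pairs share their 6 libraries and may share reads. Whether the neighbours of members differ from this general likeness was not tested.

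**Figure D5:**
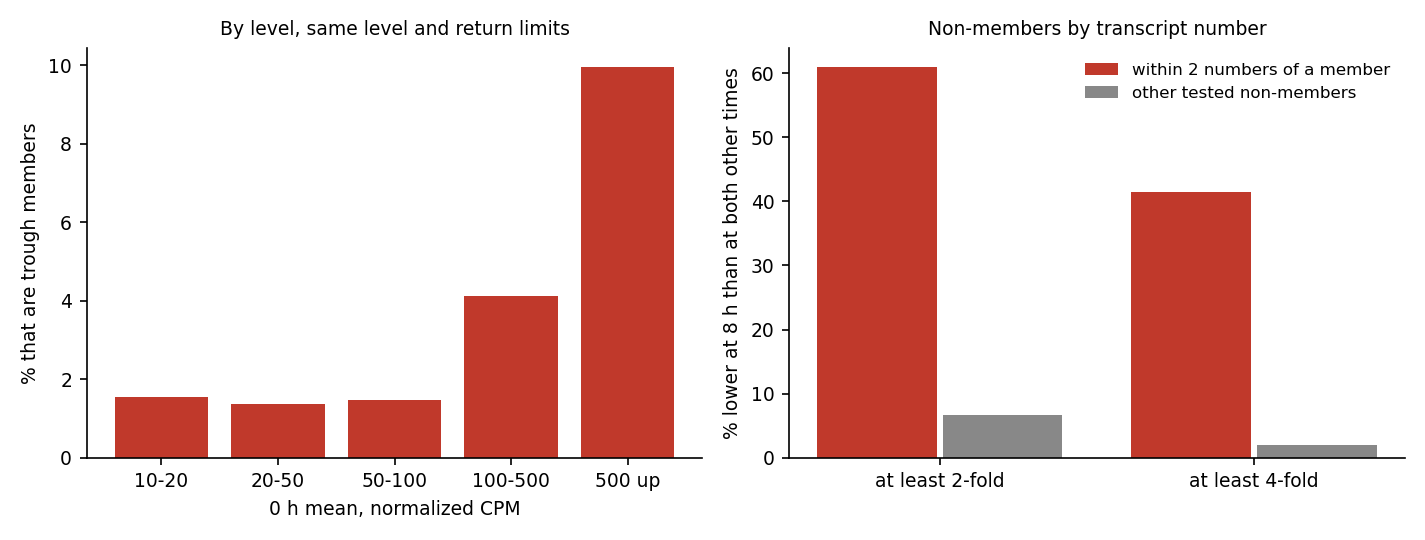
Left, members as a percentage of the transcripts that met the limits on level and return, by 0 h mean in normalized CPM, from 1.56% at 10 to 20 to 9.95% at 500 or more. Right, percentage of tested non-members that were at least 2-fold or 4-fold lower at 8 h than at both other times, for those within 2 numbers of a member (60.9% and 41.4%) and all others (6.62% and 1.98%).

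Where 1 transcript number had several IDs, the partners were mostly lower at 8 h too. There were 11 tested IDs that share a number with a member without being one, and they are part of the 128 described above. At least 2-fold lower at 8 h than at both other times were 10 of them, and 7 were at least 6-fold lower. Beside them, 6.62% of the 39875 tested non-members without a number near a member's were at least 2-fold lower. S_Transcript_22590.p2, whose partners p1 and p3 are members, averaged 40.9 ± 13.4 normalized CPM at 0 h, 1.67 ± 0.302 at 8 h and 62.7 ± 5.37 at 24 h, and missed the limit on return. S_Transcript_61371.p2 averaged 44.1 ± 14.2 at 0 h, 4.51 ± 1.82 at 8 h and 68.7 ± 4.38 at 24 h. The exception was S_Transcript_73889.p2, at 116.3 ± 5.44 at 0 h, 60.8 ± 5.27 at 8 h and 143.1 ± 3.64 at 24 h (SD, n = 3 each), whose partner p1 is a member. Other partners had much lower levels, down to S_Transcript_53003.p2 with a mean of 1.36 normalized CPM at 0 h, 0 at 8 h and 1.10 at 24 h. The partners named here were picked after their values were seen.

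In shoot more transcripts met the trough rule than its mirror image, and in root fewer did. The trough was found in 217 shoot transcripts, and by the mirrored rule, with an 8 h mean of at least 10 that was at least 6 times both other means, 31 peaked at 8 h. In root 2 transcripts had a trough and 14 a peak by the same rules. A minimum level at 0 h and 24 h for troughs and at 8 h for peaks does not select from equal numbers of transcripts. With library size alone as the scaling there were, in shoot, 161 troughs and 47 peaks. In shoot, 1044 of the 11035 transcripts that met the limits on level and return (9.46%) were at least 2-fold lower at 8 h than at both other times and 378 (3.43%) at least 4-fold. In root the same were 161 (1.45%) and 11 (0.0989%) of 11120.

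The whole rule was met by 217 transcripts in shoot and by 2 in root. Shoot and root IDs form separate sets, so it is not known whether these 2 match any shoot member. R_Transcript_8233.p1 had 489.5, 407.6 and 456.9 normalized CPM at 0 h, 60.6, 58.8 and 66.5 at 8 h, and 344.9, 425.9 and 452.7 at 24 h. R_Transcript_72575.p1 averaged 18.1 ± 1.78 at 0 h, 1.602 ± 0.208 at 8 h and 13.8 ± 0.309 at 24 h (SD, n = 3 each). The tissues were normalized in separate tables and transcripts are not replicates, so the difference between tissues was not tested.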

How the data were processed

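The members, limits and lists were chosen with earlier results of these data known. The authors deposited, per tissue, estimated counts per transcript as whole numbers and a normalized signal, called normalized CPM here. Trimmomatic, kallisto 0.45 and edgeR 3.40.1 appear in the submitters' processing notes, with no role for each. The deposited signal equals the CPM of the counts divided by edgeR's TMM factor of each library (largest relative difference 4.5e-10). The assembly, and whether counting used the strand, are not given in the sources used here. All columns matched 1 library each.

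Members, levels and ratios came from the normalized CPM (Python 3.11.15, pandas 2.3.3). Counts were fitted in R 4.3.3 with edgeR 4.0.16: filterByExpr (minimum count 10, 40220 shoot transcripts kept, at least 99.1% of each library's counts), TMM, and 1 quasi-likelihood model of 9 libraries with a mean per time, tried on simulated counts. Rounding changed nothing. DESeq2 1.42.0 was an alternative. P-values set the difference between times against the spread between libraries.

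Libraries of a time differed beyond sampling noise (chi-square per degree of freedom 3.26 to 12.1). A count of 0 in a library allows up to 3 counts, or 0.199 to 0.299 CPM, for counting error only. Named transcripts were fixed by rule: the 6 highest at 0 h, the 6 deepest with counts at 8 h, the 3 highest and lowest 24 h to 0 h ratios, the 3 nearest each side of the depth limit, the 2 most and least variable at 0 h and the 3 longest runs of numbers (2 runs of 3, then, of 18 tied runs of 2, the one with the lowest numbers, an order the rule did not fix). Those at the other limits and the partner IDs were named after their values were seen.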

Additional observations from a re-analysis of the deposited data

How the results depend on the processing

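The number of shoot members changed by over 1.5 times with some changed limits. It was 378 with an 8 h mean of at most 1/4 of both others, 133 with at most 1/8, and 140 with a return within 4/5 and 5/4. With other changed limits it moved less, to 273 with a level of at least 5, 165 with at least 20 and 248 with a return within 1/2 and 2. Without the requirement on single libraries it was 217. It was 161 with library size alone, all of them among the 217, 217 with DESeq2's size factors (214 shared), 216 with IDs of 1 number summed, and 200 to 230 without 1 library. Mirrored peaks were 47 with library size alone, against 31. Root members were 2 under each scaling. Members called lower at 8 h were 216 or 217 under all alternatives run, beside 4108 to 6331 of all tested transcripts. Members called higher at 24 h than at 8 h were 216 or 217, beside 4346 to 6468 of all tested. Members called at 24 h against 0 h were 34, and 13 to 25 without 1 library. They were 33 to 51 with other tools, scalings or no filter (51 with DESeq2, 43 higher and 8 lower). With the replicate block they were 17 (16 higher and 1 lower, against 27 and 7). Calls over all tested transcripts moved too, from 1115 higher and 1727 lower. They were 1400 and 1964 with DESeq2, and 735 and 1171 with the replicate block. The cause was not tested. Same-numbered libraries did not deviate together (r of -0.217 to 0.099), so they were not taken as pairs. Members at under 10 counts per 8 h library (8 of 217) have poorly measured depths.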
